A study of Mus musculus with 12 samples.

Results

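The small leucine-rich proteoglycans are secreted proteins that coat collagen fibrils, and 10 of their genes were examined: Fmod, Dcn, Lum, Prelp, Ogn, Aspn, Epyc, Chad, Omd and Kera. They were taken by symbol, through the Ensembl mouse IDs in the count files, and only autosomal genes were kept. All 10 IDs were present among 57010. The cells were primary mouse chondrocytes, cartilage cells in culture whose genotype is given as wild type in all 12 libraries, and they fell into 3 groups of 4 libraries. One group is labelled Control. The WT group was transfected with a plasmid named only as wild type, and the third group with a plasmid named SIRT5F101L mutant, after SIRT5, a mitochondrial deacylase. Neither the treatment of the control cells nor the plasmid backbone or the promoter on it is given, nor are the age, strain or number of the mice. The libraries are not said to come from separate cultures, so the p-values measure the spread between libraries, which may be technical.

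Each of these proteins is built on a core of leucine-rich repeats that folds into a curved solenoid and binds collagen. Class I members such as decorin carry chondroitin or dermatan sulfate chains, class II members such as fibromodulin and lumican carry keratan sulfate and sulfated tyrosines, and class III members include epiphycan and osteoglycin. In cartilage they set the diameter and spacing of collagen fibrils, bind growth factors including TGF-beta, and are cut by matrix proteases when cartilage is broken down.

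Libraries held 15095357 to 24242139 counts. A floor of 3 counts was worth 0.124 to 0.199 CPM, the count scaled to library size, before TMM scaling. That floor covers counting error only. SIRT5F101L replicate 1 stood apart from its group in how CPM varied with transcript length, taken as a slope on log2 scales. Its slope was -0.0588, against 0.0809 to 0.103 in the other 3. Results that rest on this library are given with and without it. Slopes were -0.0661 to -0.0438 in control and -0.0361 to 0.0521 in WT. That library aside, slope and group cannot be told apart in the comparisons with control. Sirt5 itself had 1 to 19 counts in a library, with an edgeR log2 fold change of -0.86 (adjusted p 0.143) in WT and 0.03 (adjusted p 0.954) in SIRT5F101L against control, so it gives no check of the plasmid labels. Among defining markers of the labelled cell type, Col2a1, the main cartilage collagen, stood at 6712 ± 690 CPM (SD, n = 4) in control. All 15 chondrocyte markers were tested. Their summed level in control was 8270 to 10300 CPM, below the 30500 to 36360 CPM of the fibroblast and perichondrium markers. Col2a1 made up most of the first sum, and the collagen genes Col1a1, Col1a2 and Col3a1 nearly all of the second.

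The family was only in part countable. Ogn, Aspn, Omd and Chad had 0 counts in all 12 libraries. In the GENCODE M21 annotation (GRCm38, an older build than that of the files) all exon bases of these 4 genes lie within the span of another gene on the opposite strand. Cenpp, a centromere protein gene of 189 kb on chromosome 13, spans Aspn, Omd and Ogn, and also Ecm2, a related gene at 0. Acsf2, an acyl-CoA synthetase gene of 44.8 kb on chromosome 11, spans Chad. Overlap with exons of the host was small: 0.297% of the exon bases of Aspn and 0% of those of Omd, Ogn, Chad and Ecm2. The host genes had counts, 76 to 300 per library for Cenpp and 260 to 431 for Acsf2.

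**Figure D1:**
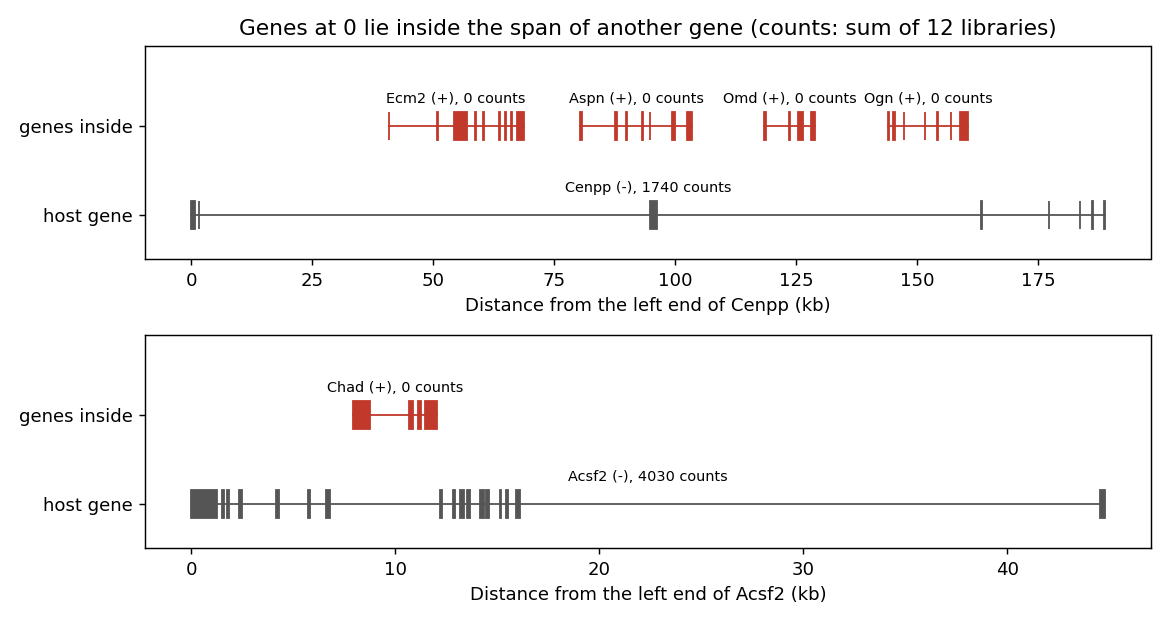
Maps of Cenpp (top) and Acsf2 (bottom), the x axis giving kilobases from the left end of the host gene, with exons as blocks, introns as lines, the strand in brackets and the sum of counts over 12 libraries beside each name. The 4 proteoglycan genes at 0 and Ecm2 lie between or across the exons of a host that has counts.

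The same pattern held across the genome. Of 1385 autosomal protein-coding genes with every exon base inside another span, 1123 (81.1%) were at 0 in all libraries, against 2374 of 13105 (18.1%) with no such base. Of 633 genes wholly inside another span but with no base in another exon, as for Ogn, Omd and Chad, 530 (83.7%) were at 0. The 0 counts of Ogn, Aspn, Omd and Chad are therefore not read here as absence of osteoglycin, asporin, osteomodulin or chondroadherin RNA. Bgn, which encodes biglycan, was also at 0, as were all 2414 IDs of the X chromosome.

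**Figure D2:**
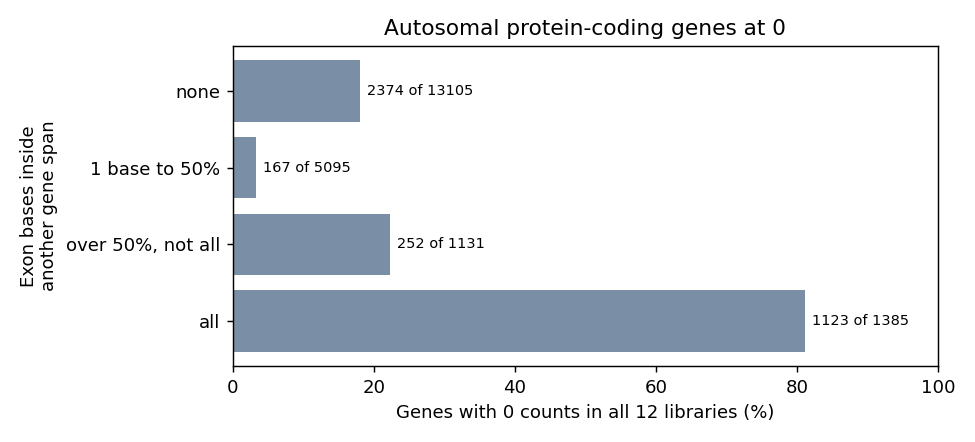
Share of autosomal protein-coding genes with 0 counts in all 12 libraries (x axis, %), by how much of their exon sequence lies inside the span of another gene (y axis); the numbers give genes at 0 of genes in the class. The share is 81.1% where all exon bases lie inside another span, against 18.1% where none do.

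Of the other 6 members, Fmod, Dcn, Lum and Kera have no exon base in another gene. Prelp has 79.0% of its exon bases within the span of the antisense gene Gm15851, with 759 bases outside it, and Epyc has 40.6% within the antisense gene Gm10754. Whether the counting used strand is not given, so reads of Prelp and Epyc and of their antisense partners cannot be told apart with certainty. Kera had 73 counts in all and did not pass the expression filter, which left 5 members for the test across 14253 genes.

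Against control, decorin RNA rose and fibromodulin and lumican RNA fell in both plasmid groups. Epiphycan RNA fell in WT. Its fall in SIRT5F101L was near the threshold, and the call was lost under several alternatives, while Prelp was not called. In WT, 1 of 5 tested members was higher and 3 were lower at an adjusted p under 0.05. Over all genes 56.8% were called in that comparison, 28.7% higher and 28.1% lower. In SIRT5F101L the count was again 1 higher and 3 lower, where 60.7% of all genes were called, 30.0% higher and 30.7% lower. The libraries of the groups did not overlap for 4 of the 5 members in either comparison, against 53.5% of all genes for WT and 51.3% for SIRT5F101L. The shares of members called are thus to be read against a background in which more genes changed than not, and both comparisons use the same 4 control libraries. In bulk RNA, fewer cells of a type and less RNA per cell cannot be told apart.

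Among the class II members, Fmod had the largest difference. Fibromodulin binds collagen fibrils at early steps of their assembly and promotes cross-linking. Its level was 2310, 1980, 2265 and 2266 CPM in the control libraries, 278, 277, 307 and 263 CPM in WT, and 275, 270, 256 and 280 CPM in SIRT5F101L. Every control library lay far above every plasmid library, with control replicate 2 the lowest of its group. The mean fell from 2205 ± 152 to 281 ± 18.2 CPM in WT (SD, n = 4 each), which was 7.84-fold lower (log2 fold change -2.97, standard error 0.07, adjusted p 5.61e-18). In SIRT5F101L it was 270 ± 10.6 CPM, 8.16-fold lower (log2 fold change -3.03, standard error 0.07, adjusted p 3.91e-18).

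**Figure D3:**
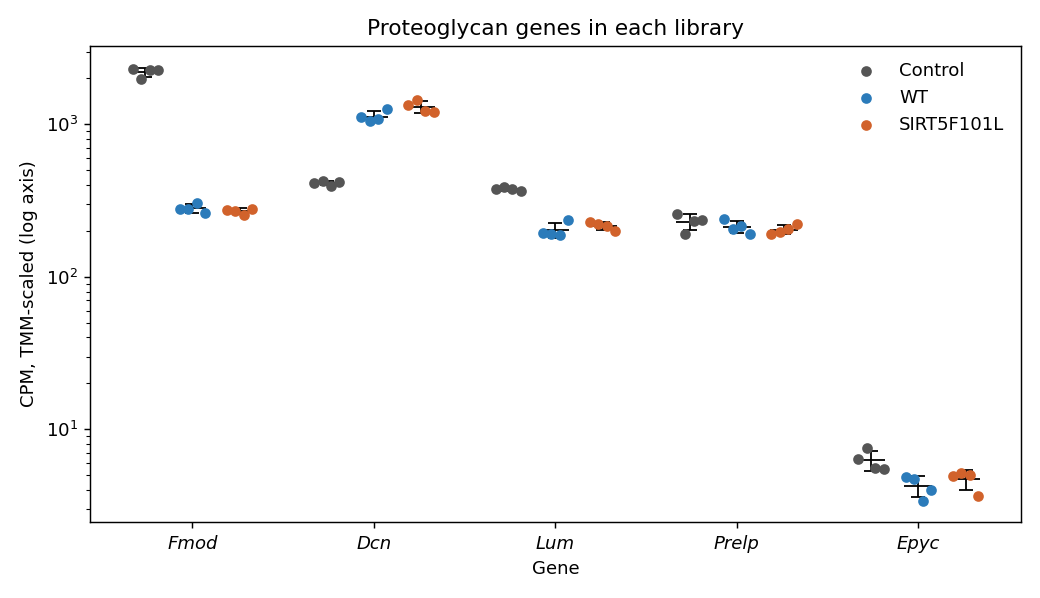
TMM-scaled CPM on a log axis for the 5 tested members (x axis) in each library, with colours for the groups; points are libraries, and the black bars give the mean and SD of 4 libraries. Fmod stands at 1980 to 2310 CPM in control and 256 to 307 CPM in the plasmid groups, Dcn moves the other way, and the 3 groups overlap for Prelp.

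Lum encodes lumican, a keratan sulfate proteoglycan that limits the lateral growth of fibrils. It was at 376, 389, 375 and 366 CPM in control, at 195, 191, 188 and 235 CPM in WT, and at 228, 221, 217 and 198 CPM in SIRT5F101L. The plasmid groups overlapped each other, and both lay below all control libraries. Lum fell 1.86-fold in WT (log2 fold change -0.90, standard error 0.07, adjusted p 8.01e-10) and 1.75-fold in SIRT5F101L (log2 fold change -0.80, standard error 0.07, adjusted p 3.92e-09).

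Prelp encodes a basic relative that ties collagen to heparan sulfate at basement membranes and in cartilage. Its 12 libraries overlapped, with 257, 191, 234 and 235 CPM in control, 240, 205, 216 and 191 CPM in WT, and 191, 196, 205 and 222 CPM in SIRT5F101L. The log2 fold change was -0.11 in WT (95% interval -0.28 to 0.07, edgeR adjusted p 0.292) and -0.17 in SIRT5F101L (95% interval -0.35 to 0.00, edgeR adjusted p 0.0835). Control replicate 2 bears on this: without it the values were -0.19 (adjusted p 0.0479) and -0.25 (adjusted p 0.00873), both past the threshold. Without SIRT5F101L replicate 4 the second value also passed, at -0.22 (adjusted p 0.0459).

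Fmod and Prelp both lie on chromosome 1, on opposite strands, one with the strongest fall among the members and the other with none called, so the bases before their starts are shown side by side. RefSeq promoter windows (GRCm38.p6) were matched for 8 of the 10 members, Dcn and Lum not among them. The 250 bases before each start are given 5′ to 3′ on the gene's own strand, Fmod from chr1:134037004-134037253 (plus strand) and Prelp from chr1:133921402-133921651 (minus strand). Capitals mark matches to any of 3 motifs searched on both strands: TGANTCA for AP-1, AACAAT for SOX factors and TATAAA for the TATA box.
Fmod: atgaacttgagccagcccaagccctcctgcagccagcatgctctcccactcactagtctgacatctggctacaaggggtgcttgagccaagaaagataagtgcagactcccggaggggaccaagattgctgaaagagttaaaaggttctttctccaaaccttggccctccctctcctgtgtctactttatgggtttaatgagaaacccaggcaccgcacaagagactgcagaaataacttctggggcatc
Prelp: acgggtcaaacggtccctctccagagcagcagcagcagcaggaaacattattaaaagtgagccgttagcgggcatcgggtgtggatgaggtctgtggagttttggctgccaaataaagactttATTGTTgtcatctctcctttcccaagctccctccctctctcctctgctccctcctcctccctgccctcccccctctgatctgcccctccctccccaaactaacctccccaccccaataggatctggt
The Fmod window held none of the 3 motifs. The Prelp window held 1, the SOX letters read on the opposite strand as ATTGTT, starting 127 bases before the start and overlapping no other motif. Among 32851 promoter windows of the same length, 6.75% held the AP-1 letters, 9.42% the SOX letters and 12.4% the TATA letters. The SOX letters also stood in the windows of Kera, Aspn and Epyc and the TATA letters in those of Chad, Aspn and Ogn. A match is a description of the letters in the window and was not tested against any measurement.

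Kera encodes keratocan, a keratan sulfate proteoglycan best known from the cornea. It had 5, 13, 18 and 11 counts in control, 3, 3, 1 and 6 in WT, and 9, 0, 4 and 0 in SIRT5F101L. Most plasmid libraries were at or near the floor, and each plasmid group overlapped control. The mean level was 0.627 ± 0.274 CPM in control, 0.177 ± 0.104 in WT and 0.160 ± 0.227 in SIRT5F101L. SIRT5F101L replicate 1 held 9 of the 13 counts of its group, and without it the difference from control moved from -0.467 to -0.573 CPM (exact permutation p 0.0571) and that from WT from -0.0163 to -0.123 CPM (exact permutation p 0.171). An exact two-sided permutation test over 70 arrangements gave p = 0.0571 for each plasmid group against control (0.0856 adjusted over 3 comparisons), where the smallest p the design allows is 0.0286. In an edgeR fit with no expression filter, Kera had a log2 fold change of -1.78 (adjusted p 0.0299) in WT and -1.88 (adjusted p 0.0193) in SIRT5F101L.

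Of the class I members only Dcn could be read. Decorin binds collagen and sequesters TGF-beta, and in soluble form it also binds receptors on the cell surface. Its level was 415, 425, 397 and 417 CPM in control, 1119, 1048, 1078 and 1253 CPM in WT, and 1341, 1441, 1223 and 1206 CPM in SIRT5F101L. All 8 plasmid libraries lay above all control libraries, and the plasmid groups overlapped each other. Dcn rose 2.72-fold in WT, to 1124 ± 90.4 from 414 ± 12 CPM (log2 fold change 1.44, standard error 0.07, adjusted p 5.09e-13). It rose 3.15-fold in SIRT5F101L, to 1303 ± 110 CPM (log2 fold change 1.66, standard error 0.07, adjusted p 5.47e-14).

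The class III member Epyc encodes epiphycan, a dermatan sulfate proteoglycan of growth plate cartilage. It was the least abundant tested member, at 6.38, 7.55, 5.59 and 5.51 CPM in control, 4.83, 4.74, 3.41 and 4.01 CPM in WT, and 4.97, 5.19, 5.05 and 3.62 CPM in SIRT5F101L. All control libraries lay above all plasmid libraries, by a small gap. Epyc fell 1.47-fold in WT (log2 fold change -0.56, standard error 0.17, adjusted p 0.00706) and 1.33-fold in SIRT5F101L (log2 fold change -0.41, standard error 0.16, adjusted p 0.0365). The second call was lost without control replicate 1 (adjusted p 0.0659), control replicate 2 (0.134) or SIRT5F101L replicate 4 (0.127). It was also lost by DESeq2 (0.0569), with a transcript length offset (0.0621) and with only the 8 libraries compared (0.0553). In these fits the log2 fold change stayed negative, at -0.40 to -0.31.

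**Figure D4:**
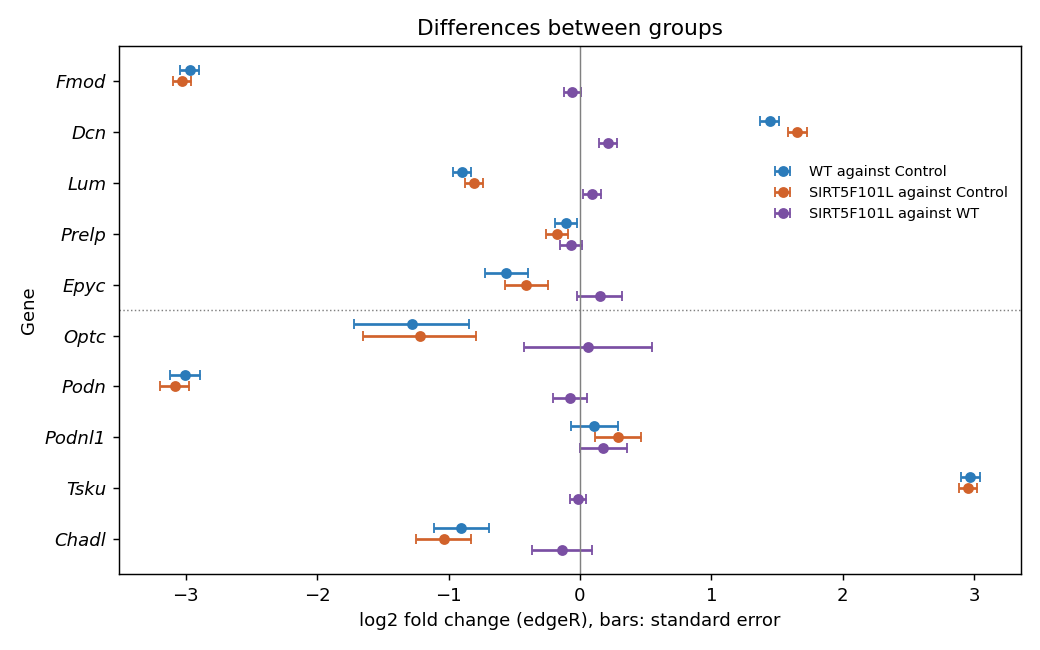
Log2 fold changes from edgeR (x axis) with their standard errors for the 5 tested members (above the dotted line) and 5 tested relatives (below it), in the 3 comparisons shown by colour. Fmod and Podn lie near -3, Tsku near 3, Dcn between 1 and 2, and the values for SIRT5F101L against WT lie close to 0.

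The 2 plasmids were compared with each other directly, which asks how the mutant plasmid differs from the wild-type one. By edgeR 0 of the 5 tested members were called, and 1 of them, Dcn, had an unadjusted p under 0.05, as did 1701 of all 14253 genes. DESeq2 also called 0. Over all genes 0.0421% were called, 6 in number, and the libraries of the groups did not overlap for 4.02% of genes, none of them a member. Dcn was 1.16-fold higher with SIRT5F101L (log2 fold change 0.21, 95% interval 0.07 to 0.36, p 0.00575, edgeR adjusted p 0.355). Without SIRT5F101L replicate 1, the library that stood apart in length slope, the difference was 0.20 and its adjusted p 0.0395, past the threshold, while the calls over all genes rose from 6 to 2212. For the other members the intervals bound the difference: -0.19 to 0.08 for Fmod, -0.05 to 0.24 for Lum, -0.24 to 0.11 for Prelp and -0.20 to 0.50 for Epyc on the log2 scale. These limits leave a difference of either sign possible and do not show that the plasmids act alike.

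Leaving out SIRT5F101L replicate 1 moved the differences from control little. Fmod stood at -3.04, Dcn at 1.64, Lum at -0.83, Prelp at -0.14 and Epyc at -0.43 on the log2 scale, each on the same side of the threshold as with it.

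Levels of different members were compared per length, as CPM per kb of the longest transcript. In control the order was Fmod at 707 ± 48.6, Lum at 154 ± 3.91, Dcn at 88.1 ± 2.56, Prelp at 63.4 ± 7.66, Epyc at 2.47 ± 0.373 and Kera at 0.275 ± 0.120 CPM per kb (SD, n = 4), and no neighbours overlapped. In WT, Dcn led at 240 ± 19.3, followed by Fmod at 90.2 ± 5.85 and Lum at 82.6 ± 8.92, which did not differ beyond their spread, and Prelp at 58.9 ± 5.68. In SIRT5F101L, Dcn was at 278 ± 23.5, Lum at 88.1 ± 5.10 and Fmod at 86.6 ± 3.39, again within their spread, and Prelp at 56.3 ± 3.77 CPM per kb.

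Parts of this order depended on the length used. In control Dcn stood above Lum with the mean protein-coding transcript length (329 against 154 CPM per kb) and with the coding length (389 against 371, libraries overlapping), and Prelp, at 302 CPM per kb, stood above Lum and Dcn with only exon bases outside other genes. In the plasmid groups Fmod stood above Lum without overlap under both of the first lengths: with the mean length at 154 against 82.6 in WT and 148 against 88.1 in SIRT5F101L, and with the coding length at 249.4 against 199.5 in WT and 239.5 against 212.8 in SIRT5F101L. Fmod led in control, and Dcn stood above Fmod in both plasmid groups, with each of the 4 lengths.

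By the longest transcript, the make-up of the counted family shifted from mostly fibromodulin in control to mostly decorin. Fmod held 69.6 ± 1.40% of the summed CPM per kb of the 6 counted members in control, 19.1 ± 1.8% in WT and 17.0 ± 0.948% in SIRT5F101L. Dcn held 8.71 ± 0.639%, 50.6 ± 1.77% and 54.3 ± 1.97%. Lum held 15.2%, 17.4% and 17.3%, and Prelp 6.23%, 12.5% and 11.1%. The rise of the Lum share depended on the length used. Lum held 8.77%, 6.92% and 6.63% with the mean protein-coding length, and 12.7%, 11.7% and 11.4% with the coding length. Prelp held 3.60%, 4.96% and 4.25% with the mean protein-coding length. By the longest transcript, the sum itself went from 1015 ± 51.1 CPM per kb in control to 473 ± 22 in WT and 511 ± 24.7 in SIRT5F101L. The size of this fall also depends on the length used, as the levels of Fmod and Dcn do. The share of Prelp depends on which of its bases could be counted. With only exon bases outside other genes as its length, Prelp became the largest in the plasmid groups, at 43.6% and 40.4%, above Dcn at 29.9% and 33.6%.

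**Figure D5:**
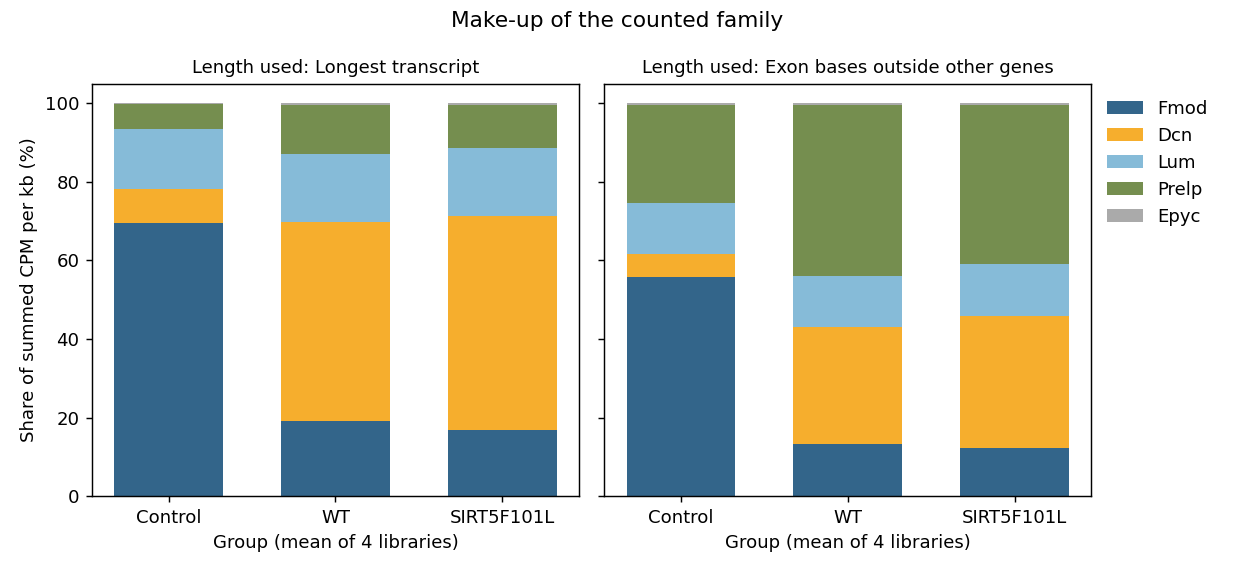
Mean share of each counted member in the summed CPM per kb (y axis, %) by group, with length taken as the longest transcript (left) or as exon bases outside other genes (right); Kera, with a share of at most 0.0273% in a group, is not drawn. Fmod falls from 69.6% to 19.1% and 17.0% on the left, and Prelp is the largest in both plasmid groups on the right only.

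The members did not share 1 pattern across the 12 libraries. Likeness was measured as the root mean square distance between log2 CPM profiles centred on the control mean, over 9788 candidate genes. The gene nearest to Fmod was Npr3, a natriuretic peptide clearance receptor, at 0.107, while its closest fellow member was Lum, at 1.76. Dcn was nearest to Gbp3, an interferon-induced GTPase, at 0.0899, and its closest member was Prelp, at 1.39. Lum was nearest to Lurap1l at 0.075, Prelp to Trappc9 at 0.0667 and Epyc to Cbfb at 0.156. Lum and Epyc were the closest pair of members, at 0.359, with 1259 candidates lying closer to Lum than Epyc does. These distances are a description, since all genes share the same libraries and the same controls.

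Of 8 further leucine-rich proteoglycan genes with an ID in the files, 5 were tested, and these moved both ways. Podn encodes podocan, which binds collagen, and its level was 30.5, 33.6, 32.8 and 38.0 CPM in control, 4.63, 3.65, 4.04 and 4.37 CPM in WT, and 3.42, 4.02, 4.13 and 4.30 CPM in SIRT5F101L. It fell 8.08-fold and 8.50-fold, with log2 fold changes of -3.01 and -3.08 (edgeR adjusted p 5.78e-15 and 3.86e-15), close in size to Fmod. Tsku encodes tsukushi, a secreted binder of several growth factors, and its level was 37.7, 30.8, 33.7 and 36.2 CPM in control, 280, 265, 286 and 254 CPM in WT, and 270, 269, 257 and 277 CPM in SIRT5F101L. It rose 7.84-fold and 7.75-fold, with log2 fold changes of 2.97 and 2.96 (edgeR adjusted p 5.82e-18 and 5.77e-18). For both genes the control libraries were clear of the plasmid libraries, in opposite directions. Chadl, a relative of Chad, fell by 0.90 and 1.04 on the log2 scale, with 50.5% of its exon bases within the span of L3mbtl2. Optc, which encodes opticin, fell by 1.28 and 1.22 on 3 to 24 counts per library, and Podnl1 was not called (log2 fold changes 0.11 and 0.29).

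Genes that build the chains were read next, from lists of pathway genes. Counts called in this and each later list stand beside 28.7% of all genes higher and 28.1% lower in WT. In SIRT5F101L, 30.0% of all genes were higher and 30.7% lower. Of 20 tested enzymes of chondroitin and dermatan sulfate, which attach the linker, extend it and add sulfate, 7 were higher and 7 lower in WT, and 8 and 7 in SIRT5F101L. Chst11, a chondroitin 4-O-sulfotransferase, rose from 46.9 ± 3.49 to 142 ± 6.19 and 145 ± 14.3 CPM, and Pxylp1, the phosphatase that acts on the linker xylose, from 10.5 ± 0.910 to 28.5 ± 2.66 and 29.2 ± 2.73 CPM (SD, n = 4). Of 10 tested keratan sulfate enzymes, 3 were higher in WT (Chst1, St3gal1 and Chst2) and 5 in SIRT5F101L (these and B3gnt2 and Fut8), and the others were not called. Chst1, a galactose 6-sulfotransferase for keratan sulfate, rose by 2.21 and 1.97 on the log2 scale, and St3gal1, a sialyltransferase, by 1.78 and 1.81. The median log2 fold change was 0.07 and 0.29 for this list and 0.00 and -0.05 for the chondroitin list, against -0.01 and -0.02 for all genes.

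Among 7 tested genes for tyrosine sulfation and propeptide processing, 3 were higher (Tpst2, Tll1 and Furin) and 4 lower (Tpst1, Bmp1, Pcolce and Pcolce2) in each plasmid group. Tpst1 and Tpst2 encode the tyrosine sulfotransferases that modify fibromodulin and lumican, and they moved in opposite directions: Tpst1 by -1.59 and -1.46 and Tpst2 by 0.74 and 0.67 on the log2 scale. Tll1, a relative of the procollagen C-proteinase, rose by 2.30 and 2.26.

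The collagen partners, fibrillar or not, mostly fell with Fmod and Lum. Of 17 tested collagens, 14 were lower and 2 higher (Col5a3 and Col6a3) in each plasmid group, with a median log2 fold change of -1.43 and -1.49. Col9a1, a chain of the collagen on the surface of cartilage fibrils, fell by 3.25 and 3.80, and Col11a2, a chain of the fibril core, by 2.73 and 3.36. Col11a2 was also lower in SIRT5F101L than in WT, at 16.8 ± 1.35 against 26.03 ± 1.67 CPM (log2 fold change -0.63, edgeR adjusted p 0.0339), and no other gene of the lists was called in that comparison with all 12 libraries. That call was lost when any 1 of WT replicates 1 to 4 or SIRT5F101L replicates 2 to 4 was left out. Without SIRT5F101L replicate 1, where 15.2% of 14528 genes were called, Col11a2 stood at -0.62 (adjusted p 9.22e-05) and other list genes passed too. The collagens then had 4 lower with SIRT5F101L than with WT (Col2a1, Col9a1, Col9a2 and Col11a2) and 1 higher (Col12a1), and the keratan sulfate enzymes 1 lower (Chst1). The chondroitin enzymes had 2 higher (Xylt1 and Csgalnact1), the TGF-beta list 3 (Tgfbr1, Tgfbr3 and Smad4), the proteases 4 (Mmp2, Mmp3, Mmp13 and Adamts5) and the receptors 2 (Igf1r and Itga2). Cell type markers moved in the same setting: 5 chondrocyte markers were lower (Col2a1, Col9a1, Col9a2, Col11a2 and Acan) and 2 higher (Sox5 and Sox6), the fibroblast list had 3 higher (Postn, Pdgfra and Prrx1), the hypertrophic list 1 (Mmp13) and the osteoblast list 1 (Runx2), and no tendon, leukocyte or endothelial marker was called. The 3 SIRT5F101L libraries left had length slopes of 0.0809 to 0.103, against -0.0361 to 0.0521 in WT, so in that setting slope and group cannot be told apart.

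Decorin's growth factor partners moved both ways. Of 18 tested genes of the TGF-beta list, 7 were higher and 9 lower in WT, and 8 and 9 in SIRT5F101L. Tgfb2, a ligand, fell by 2.43 and 2.26 on the log2 scale. Of 10 tested proteases, 3 were higher (Mmp1b, Mmp3 and Mmp13) and 5 lower (Mmp2, Mmp14, Adamts4, Adamts5 and Adamts9) in both groups. Mmp3, stromelysin, which cleaves several proteoglycan cores, rose from 16.3 ± 1.55 to 1532 ± 146 and 1880 ± 163 CPM, and Mmp13, a collagenase that also cleaves fibromodulin, from 86.3 ± 8.64 to 508 ± 25.0 and 611 ± 38.5 CPM. Of 12 tested receptors for soluble proteoglycans, 9 were higher in both groups and 3 were not called (P2rx4, P2rx7 and Kdr), with a median of 0.71 and 0.84. Itga2, the integrin subunit that pairs in a collagen receptor and binds decorin, rose by 2.57 and 2.84, and Cd14, a co-receptor of Tlr2 and Tlr4, by 2.05 and 2.27.

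Markers of other cell types moved with these differences. Of 15 chondrocyte markers 12 were lower in each plasmid group, with log2 fold changes of -3.26 and -3.44 for Comp, a cartilage matrix protein, and of -5.43 and -5.42 for Cnmd, chondromodulin. Sox5 and Hapln1 were higher in both groups and Acan in WT. Their summed level was 8270 to 10300 CPM in control, 2395 to 2532 in WT and 1954 to 2169 in SIRT5F101L. Of 10 tested fibroblast and perichondrium markers 7 were lower and 2 higher (Pdgfra and Cd34), and the sum went from 30500 to 36360 CPM in control to 10270 to 11700 in WT and 10060 to 11380 in SIRT5F101L. Postn fell by 3.70 and 3.31, while Cd34 rose by 3.02 and 3.07. Col1a1, Col1a2 and Col3a1, also in the collagen list, made up nearly all of the fibroblast sum in control, with means of 12687, 14239 and 6475 CPM. The lower sum thus mostly restates the fall of these collagens. Dcn, often used as a fibroblast marker itself, rose as Pdgfra and Cd34 did, while 7 of the list fell. Of 9 tested macrophage and leukocyte markers 8 were lower and 1 higher (Ly6g), with a sum of 185 to 217 CPM in control, 88.0 to 103 in WT and 88.7 to 115 in SIRT5F101L. Of 4 tested hypertrophic markers Spp1 and Mmp13 were higher and Pth1r lower, and the list summed to 1925 to 2106 CPM in control, 13740 to 17030 in WT and 14960 to 17380 in SIRT5F101L. Spp1 made up nearly all of that sum, with means of 1936, 14540 and 15426 CPM. The tendon list summed to 118 to 137, 79.6 to 86.3 and 78.2 to 84.5 CPM, with Thbs4 lower and Mkx higher, and the osteoblast list to 60.6 to 71.1, 38.2 to 49.3 and 35.8 to 58.0 CPM, with Ibsp, Sp7 and Bglap2 lower. The endothelial list stayed between 2.16 and 3.57 CPM in all groups, with 3 tested markers not called. Col10a1, Scx, Tnmd and Itgam, defining markers in these lists, had 0 counts in all libraries, but Col10a1, Scx and Itgam have nearly all exon bases inside another gene span and Tnmd is X-linked, so these zeros are no more readable as absence than those of Ogn or Bgn. The part of cell make-up in the proteoglycan differences was not tested.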

How the data were processed

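Poly(A)-selected RNA of 12 libraries was sequenced as 150 bp paired-end reads, per the labels' protocols. The authors deposited whole-number counts per Ensembl gene ID, not normalized. FastQC 0.11.9, HISAT2 2.2.1, HTSeq 2.0.2, DESeq2 1.38.3 and the build GRCm39 are named in the submitters' processing notes, with no role, settings or strand. Symbols matched 52029 of 57010 IDs, and IDs without one stayed in totals and tests. No libraries were identical (0 pairs).

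From the counts, a quasi-likelihood model in edgeR (4.0.16, under R 4.3.3), fitted to all 12 libraries after TMM scaling and the default expression filter, gave log2 fold changes, standard errors and 2-sided p-values, adjusted by Benjamini-Hochberg over 14253 genes and called under 0.05. CPM values are TMM-scaled, and means carry the SD of 4 libraries. Kera, under the filter, was compared by an exact permutation test. Replicate numbers follow the order of deposition and pair nothing. Lengths, overlaps and chromosomes came from GENCODE M21 (GRCm38), promoters from RefSeq (GRCm38.p6), so overlaps in the files' own annotation may differ. The fit was tested on simulated data.

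The members and lists were chosen with earlier results of these data known. Genes named are the 10 members, Sirt5, Col2a1 and Bgn, the gene nearest to each tested member (mean of at least 5 CPM, no predicted genes, prior count 2), and of each list the 2 with the lowest adjusted p in WT against control and any called between plasmids, of which 1 gene is not reported here. Relatives of the family, genes at 0, host genes, genes that carry a summed level, and genes named to spell out counts of 5 or fewer were added after their values were seen. Alternatives were other scalings (RLE, upper quartile), filters, a robust prior, DESeq2 1.42.0, only the 8 libraries compared, a transcript length offset (loess span 0.5), each library left out in turn, and other lengths for the shares. The length outside other genes was chosen after seeing the data.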

Additional observations from a re-analysis of the deposited data

Results flagged for a closer look

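Of 18 sets of 4 libraries screened for a library far from the others, 3 had one, where chance gives about 1 in 20 (0.9 expected). Fmod in control replicate 2 was at 1980 CPM, against 2265 to 2310 CPM in the other 3 control libraries, all still above every plasmid library. Lum in WT replicate 4 was at 234.8 CPM, against 188.4 to 194.5 CPM in the other 3, and still below every control library. Epyc in SIRT5F101L replicate 4 was at 3.624 CPM, against 4.967 to 5.193 CPM in the other 3, and without that library the fall of Epyc from control was no longer called (adjusted p 0.127).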

How the results depend on the processing

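Against control, the calls for Fmod, Dcn and Lum kept their direction and side of the threshold under every alternative run. Prelp passed in SIRT5F101L with upper-quartile scaling (-0.22, adjusted p 0.0304), no filter (-0.17, 0.0369) or a length offset (-0.22, 0.0149). Between plasmids, the 6 genes called became 354 with no filter, 2 with a robust prior, 19 with the length offset, 43 by DESeq2 and 2 with 8 libraries. Leaving out 1 library gave 0 to 2212 genes and 0 to 1 members, the highest without SIRT5F101L replicate 1. The Kera difference between plasmids, -0.0163 CPM, became -0.123 without SIRT5F101L replicate 1, 0.0276 without WT replicate 4 and 0.0371 without SIRT5F101L replicate 2 or 4. WT against control for Kera reached an exact permutation p of 0.0286 without control replicate 1. That is the smallest p the test allows with that library left out, and it is not adjusted over comparisons. In control, WT and SIRT5F101L, the share of Dcn was 18.8%, 75.0% and 77.8% with the mean protein-coding length, 13.4%, 62.2% and 65.8% with the coding length, and 5.94%, 29.9% and 33.6% with bases outside other genes. That of Fmod was 13.0% and 11.2% in WT and SIRT5F101L with the mean length, 66.8%, 14.7% and 12.9% in the 3 groups with the coding length, and 55.7%, 13.2% and 12.3% with bases outside other genes. The causes were not tested. No paired analysis was possible because the labels give no replicate numbers that pair libraries. Upper-quartile scaling moved the median log2 fold change of all genes in WT against control from -0.01 to -0.06. Depth limits Kera and Optc.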
